A study of Homo sapiens with 2 samples.

Results

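The hnRNP transcripts described here are the mRNAs of HNRNPA2B1, HNRNPA1, HNRNPC, HNRNPK, HNRNPH1 and HNRNPU, sequenced with ABA and without ABA in the human embryonic kidney line HEK-293T. The members are the A positions of the transcript strand that the deposited hg19 base counts list inside the interval of each of the 6 genes. There were 5362 such positions, of 4733873 listed in all, and 4462 of them were listed in both libraries. The ABA library listed 4685 of them and the library without ABA 5139.

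Both libraries came from cells with a CIRTS-hADAR biosensor, so the editor is part of the control as well, and they differ in the addition of the small molecule ABA. ADAR enzymes turn adenosine in RNA into inosine, which sequencing reads as G, and in CIRTS such an effector is brought to RNA by an engineered protein and a guide RNA. The dose of ABA, the time of treatment and how the biosensor was delivered were not in the sources used here. Each condition had 1 library, so no difference between conditions has a replicate check, and every p-value compares the reads of 2 libraries and not the conditions. Intervals are at 95% and cover counting error only. The label of the cell line was not checked by marker genes, since no gene annotation of the hg19 build was used here.

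Heterogeneous nuclear ribonucleoproteins, the hnRNPs, coat nascent pre-mRNA and act in splicing, RNA export, stability and translation. Their own mRNAs are abundant in proliferating cells, and several of them are controlled by splicing into forms that are degraded. HNRNPA2B1 and HNRNPA1 encode related proteins with RNA recognition motifs and a glycine-rich tail, which often silence exons. HNRNPC encodes a protein of the core particle that binds U-rich RNA. HNRNPK binds C-rich RNA through KH domains, HNRNPH1 binds runs of G, and HNRNPU, also known as SAF-A, ties RNA to the nuclear scaffold.

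The A-to-G rate of these transcripts differed little between the libraries, while that of the other nuclear positions was higher with ABA. The rate is the number of G reads over A plus G reads, summed over the positions listed in both libraries. Pooled over the 6 genes it was 0.102% of reads (0.0865 to 0.120) with ABA, 152 of 148842 reads, and 0.0863% (0.0718 to 0.103) without ABA, 125 of 144845 reads. The ratio of ABA over no ABA was 1.18 (0.928 to 1.51). Other positions of chromosomes 1 to 22 and X had 0.0793% with ABA and 0.0409% without ABA, a ratio of 1.94 (1.90 to 1.98). The interval of the hnRNP ratio held 1 and lay wholly below that of the other positions. Both intervals leave out the spread from transcript to transcript, which was wide (below), so they do not set these genes apart from other transcripts.

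Background mismatches of the same A positions were rarer than A-to-G. The other mismatches, to C or to T, had 28 reads (0.0188%) with ABA and 23 reads (0.0159%) without ABA, a ratio of 1.18 (0.658 to 2.15). The same background in the other nuclear positions was 0.0172% with ABA and 0.0157% without ABA. The ratio of the hnRNP background was thus as large as that of their A-to-G rate, although with a much wider interval.

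HNRNPA2B1, whose protein also sorts RNA for transport, had the highest A-to-G rate of the 6 in both libraries, not weighted for read depth. It was also the most deeply read, with a median of 50 reads with ABA and 45 without ABA. The rate was 0.143% (0.103 to 0.192) with ABA, 43 of 30105 reads, and 0.119% (0.0809 to 0.169) without ABA, 31 of 26055 reads. The ratio was 1.20 (0.739 to 1.97; exact Fisher p = 0.485). The gene lies at chr7:26229556-26240413 on the minus strand and had 552 positions listed in both libraries.

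HNRNPA1, at chr12:54674488-54679030 on the plus strand, was the least covered of the 6, with 399 positions listed in both libraries. The rate was 0.0959% (0.0414 to 0.189) with ABA, 8 of 8345 reads, and 0.0913% (0.0417 to 0.173) without ABA, 9 of 9863 reads. With so few G reads the ratio of 1.05 had the widest interval, from 0.353 to 3.07. HNRNPA1 is known to have many processed pseudogenes of like sequence, as HNRNPC and HNRNPK have too, and the sources used here do not say how reads that match several places were treated.

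HNRNPC, at chr14:21677296-21737638 on the minus strand, had the highest ratio, 1.34 (0.680 to 2.72; exact Fisher p = 0.424). Its rate was 0.108% (0.0685 to 0.162) with ABA, 23 of 21274 reads, and 0.0804% (0.0460 to 0.131) without ABA, 16 of 19890 reads. These intervals overlap over most of their length.

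HNRNPK and HNRNPH1 had the lowest rates and the lowest ratios. HNRNPK, at chr9:86582998-86595692 on the minus strand, had 16 of 23834 reads (0.0671%) with ABA and 16 of 24512 (0.0653%) without ABA, a ratio of 1.03 (0.481 to 2.20). HNRNPH1, at chr5:179041179-179061785 on the minus strand, had 10 of 19224 reads (0.0520%) with ABA and 11 of 19674 (0.0559%) without ABA, a ratio of 0.930 (0.354 to 2.41). HNRNPH1 alone had a lower value with ABA, by 1 G read, a direction that turned without a single position of 1 G read (1.02), and its ratio was 0.583 over positions with at least 50 reads. Its coding sequence closely resembles that of HNRNPH2, so some reads may be shared.

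HNRNPU, at chr1:245013602-245027844 on the minus strand, held the most data, with 1486 positions listed in both libraries. Its rate was 0.113% (0.0843 to 0.148) with ABA, 52 of 46060 reads, and 0.0936% (0.0675 to 0.127) without ABA, 42 of 44851 reads. The ratio was 1.21 (0.787 to 1.86; exact Fisher p = 0.409), and its upper bound lay below the 1.94 of the other nuclear positions.

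**Figure D1:**
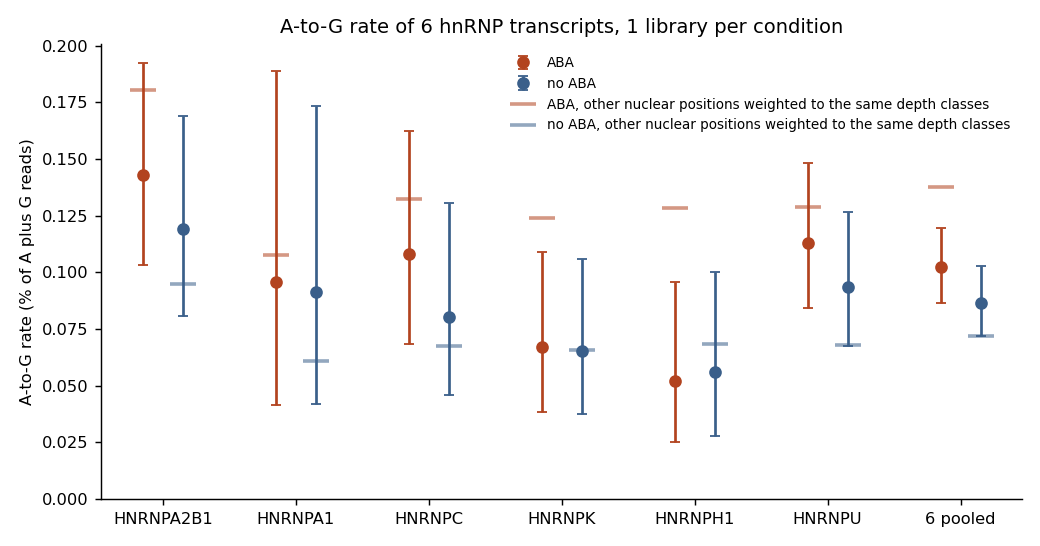
A-to-G rate, as a percentage of A plus G reads, of each hnRNP transcript and of the 6 pooled, with ABA (red, left) and without ABA (blue, right). Points carry exact 95% intervals of counting error, and dashes show the rate of the other nuclear positions weighted to the same classes of read depth. The pooled rate was 0.102% with ABA and 0.0863% without ABA, against 0.138% with ABA and 0.0718% without ABA in the other positions.

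With ABA the order of the rates, not weighted for read depth, was HNRNPA2B1, HNRNPU, HNRNPC, HNRNPA1, HNRNPK and HNRNPH1. Neighbours in this order overlapped in their intervals, and only the ends stood clear of each other, with a lower bound of 0.103% in HNRNPA2B1 and an upper bound of 0.0956% in HNRNPH1. Without ABA the order was the same, except that HNRNPA1 came before HNRNPC, and all 6 intervals overlapped.

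Each gene was also tested against the shift of the other nuclear positions, by an exact binomial test of how its G reads divide between the libraries. The test was run over 947 features, the 6 genes and 941 transcript-sized units that join other positions of 1 strand at most 5000 nt apart and hold at least 8000 A plus G reads in each library. At an adjusted p under 0.05, 0.211% of all features lay below the ratio of the other positions and 0.106% above it, and 0 of the 6 genes did either. Unadjusted, the exact p was 0.0441 for HNRNPA2B1 and 0.0281 for HNRNPU, both below that ratio, and the 4 other genes did not pass. Of all features 6.12% did so on the low side and 2.01% on the high side. The adjusted p of HNRNPA2B1 was 0.591 and that of HNRNPU 0.536, both from the exact binomial test. For HNRNPA2B1 the unadjusted exact p was 0.0592 when the other positions were weighted to its depth classes.

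The transcript-sized units outside the hnRNP genes varied widely, and the 6 genes stood among the lower of them by the size of the ratio. The units were built without gene annotation, so a unit may join genes or hold only part of a gene. By direction alone the hnRNP genes did not stand apart, with a value above 1 in 5 of 6 genes against 81.8% of all features. The transcript-sized units had a median ratio of 1.88, with quartiles at 1.23 and 2.97, and 18.2% of them had a ratio under 1. The ratio of HNRNPC lay above 28.9% of the units, that of HNRNPU above 24.2%, that of HNRNPA2B1 above 23.9%, and that of HNRNPA1 above 20.1%. HNRNPK lay above 19.2% and HNRNPH1 above 15.1%. The pooled ratio of 1.18 lay above 23.4% of the units. The ratio of HNRNPC was thus inside the quartiles, and those of the 5 other genes below the lower quartile. By Fisher's exact test against equal rates, 7.6% of all features were higher with ABA at an adjusted p under 0.05, and none of the 6 genes was, also at an unadjusted exact p under 0.05, which 22.8% of all features reached.

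**Figure D2:**
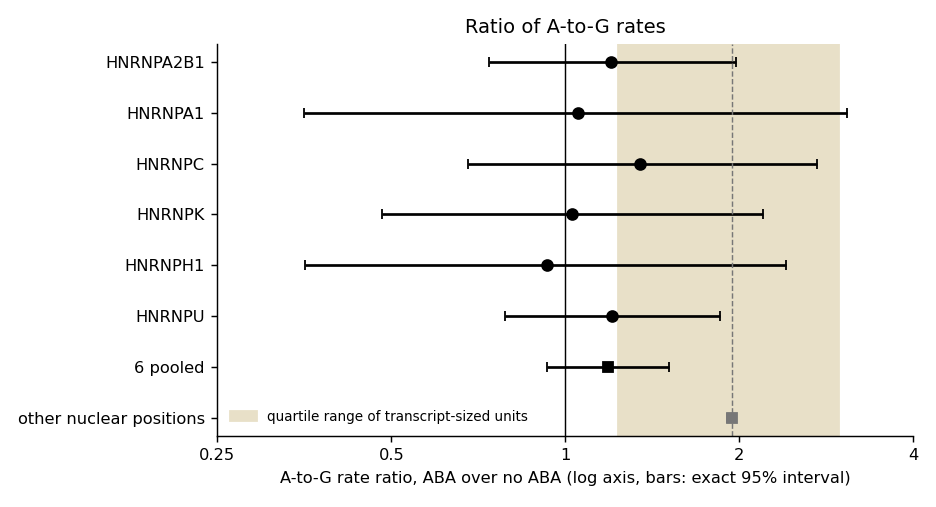
Ratio of the A-to-G rate, ABA over no ABA, on a log axis, with exact 95% intervals. The shaded band spans the quartiles of 941 transcript-sized units, 1.23 to 2.97, the dashed line is the ratio of 1.94 of the other nuclear positions, and the pooled hnRNP ratio of 1.18 lies below both.

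The rate moved with read depth in the other nuclear positions, so the comparison was also made within 5 broad classes of mean depth, inside which depth was not matched further. The hnRNP positions had a median of 28.5 reads with ABA and 29 without ABA, against 11 with ABA and 12 without ABA at the other positions. In the other positions the rate was 0.0516% with ABA and 0.0244% without ABA where the mean was under 10 reads, and 0.310% with ABA and 0.162% without ABA at 100 reads or more. Their ratio stayed between 1.85 and 2.12 in all 5 depth classes. The hnRNP transcripts had a ratio of 0.785 (0.278 to 2.09) from 10 to under 20 reads, 1.10 (0.719 to 1.67) from 20 to under 50, 1.30 (0.926 to 1.85) from 50 to under 100 and 0.710 (0.219 to 2.24) from 100 reads. Below 10 reads they had 2 G reads with ABA and 0 of 4218 reads without ABA. In the 4 classes with a ratio it was lower than in the other positions. The intervals did not overlap from 20 to under 50 reads, where the other positions had 1.86 (1.80 to 1.92), and overlapped from 50 to under 100 reads, where these had 1.85 (1.75 to 1.96).

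**Figure D3:**
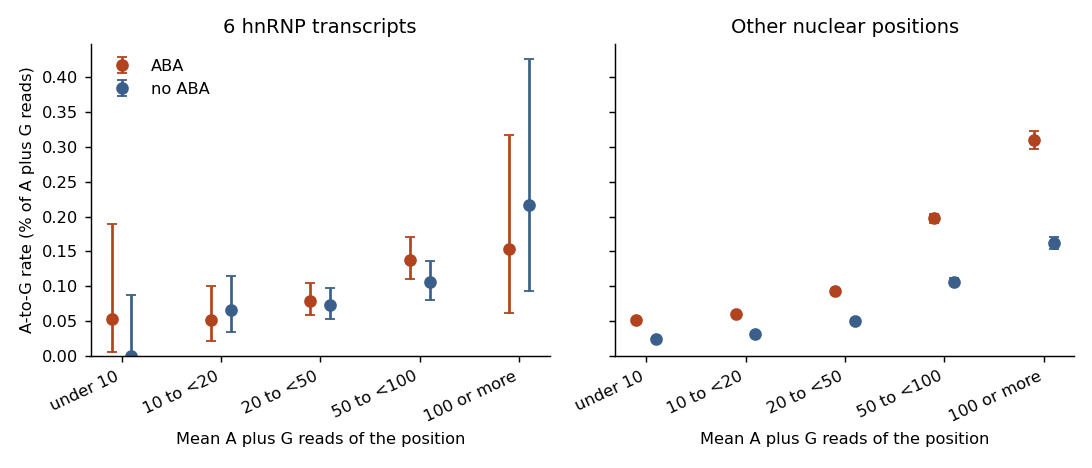
A-to-G rate by the mean number of A plus G reads at a position, in the hnRNP transcripts (left panel) and the other nuclear positions (right panel), with ABA (red) and without ABA (blue) and exact 95% intervals. The libraries stand apart in every class of the other positions, from 0.0516% against 0.0244% under 10 reads to 0.310% against 0.162% at 100 reads or more, and overlap in every class of the hnRNP transcripts.

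Weighted to the depth classes of the hnRNP transcripts, the other positions would have given 205 G reads with ABA and 104 without ABA. The observed 152 reads with ABA were 0.741 times that number (0.628 to 0.869, exact Poisson interval). The observed 125 reads without ABA were 1.20 times it (0.9998 to 1.43). With this weighting the hnRNP rate was lower than elsewhere with ABA, and its interval without ABA reached down to equality. HNRNPH1 had the smallest share of the weighted number with ABA, 0.405 (0.194 to 0.744), and 0.819 (0.409 to 1.47) without ABA. HNRNPK had 0.541 (0.309 to 0.878) with ABA and 0.994 (0.568 to 1.61) without ABA. The intervals of the 4 other genes held 1 with ABA.

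On their own chromosomes the other positions also had higher ratios than the hnRNP genes. These were 1.83 on chromosome 7, which holds HNRNPA2B1, 1.85 on chromosome 12 (HNRNPA1) and 1.84 on chromosome 9 (HNRNPK). They were 1.69 on chromosome 14 (HNRNPC), 1.96 on chromosome 1 (HNRNPU) and 1.75 on chromosome 5 (HNRNPH1). The gene's own value was the lower in 6 of 6, although 5 of the 6 gene intervals reach above the value of the chromosome.

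ADAR enzymes are known to depend on the bases beside the A they edit, and to prefer a G on its 3′ side. The files list every A with enough reads, so a neighbour can be called A or not A, while the other bases cannot be told apart. Covered positions, those read at least 20 times in each library, were used. In the other nuclear positions the ratio was 2.07 where the next base was not A and 1.33 (1.26 to 1.41) where it was. In the hnRNP transcripts it was 1.24 (0.917 to 1.67) where the next base was not A, from 108 G reads with ABA and 81 without ABA. Where the next base was A it was 1.04 (0.606 to 1.81), from 31 reads with ABA and 28 without ABA. The 2 hnRNP values overlapped, so a dependence on the next base was not detectable at this depth. The hnRNP ratio lay below that of the other positions where the next base was not A, with an upper bound of 1.67 against their 2.07.

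Positions whose next base was not A were about as frequent in the hnRNP transcripts as elsewhere. How often that base was a G could not be told. A next base other than A was found at 68.2% of the 2612 covered hnRNP positions and at 68.7% of the other covered positions. On the 5′ side the hnRNP ratio was 1.32 (0.826 to 2.13) after an A and 1.13 (0.827 to 1.55) after another base, against 2.09 after an A and 1.77 (1.71 to 1.83) after another base at the other positions. Where the previous base was A and the next was not, the other positions had their highest ratio, 2.31 (2.19 to 2.44), and the hnRNP transcripts had 1.34 (0.749 to 2.42).

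**Figure D4:**
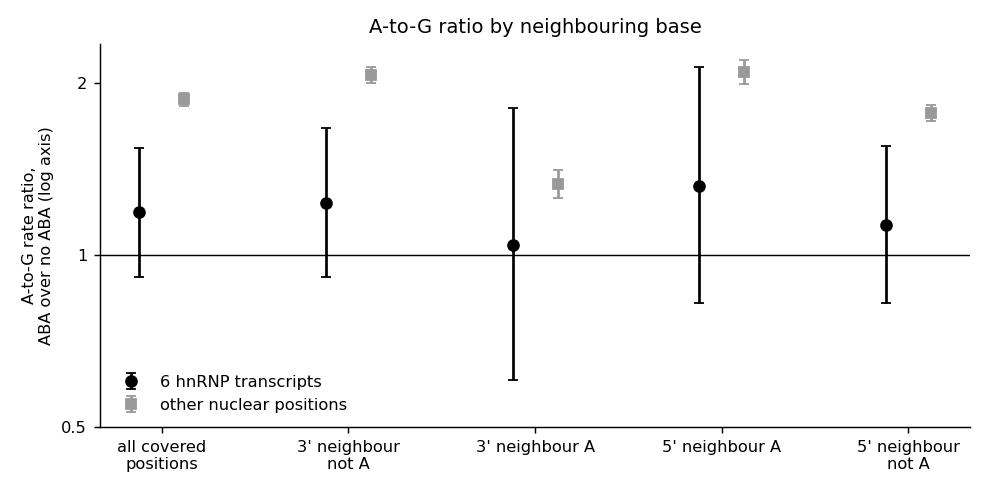
Ratio of the A-to-G rate, ABA over no ABA, on a log axis, by whether the base on the 3′ or the 5′ side is A, in the hnRNP transcripts (black) and the other nuclear positions (grey), with exact 95% intervals. The other positions span 1.33 to 2.09 and differ by the 3′ and by the 5′ neighbour, while the hnRNP values span 1.04 to 1.32 with overlapping intervals.

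The G reads of the hnRNP transcripts were scattered over many positions with 1 read each. With ABA 137 positions had a G read, 127 of them a single one, and without ABA 120 had one, 116 of them a single one. A G read in both libraries was found at 14 positions, of 243 with one in either. HNRNPA2B1 and HNRNPU held 5 of these each, HNRNPK and HNRNPC 2 each, and HNRNPA1 and HNRNPH1 none. Among covered positions, 4.79% of the hnRNP positions had a G read with ABA and 3.98% without ABA, against 3.41% with ABA and 2.05% without ABA elsewhere. A G read in both libraries was found at 0.536% of the covered hnRNP positions and at 0.318% of those elsewhere. These shares were not compared at matched depth.

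No position of the 6 genes reached a G share of 35% in a library, the limit past which positions were called variant-like, since an inherited variant would give such a share. The count of 0 of 5362 allows up to 5.59 per 10000 positions, and the other nuclear positions had 2.46 per 10000. Leaving out variant-like positions thus changed no hnRNP rate, but it did change the other positions. The pooled hnRNP ratio was 0.610 times that of the other positions without variant-like positions and 0.702 times it with them.

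No single hnRNP position passed the test between libraries, Fisher's exact test over the 359090 covered nuclear positions. A call needed a change of 10 percentage points and an adjusted p under 0.05, and it was made for 0 of the 2612 hnRNP positions and for 0% of all positions. An unadjusted exact p under 0.05 was found at 0 hnRNP positions, against 0.0175% of all positions on the high side and 0.000557% on the low side. By size alone 0 were higher by 10 points, against 0.0234% of all positions, and 0 were lower, against 0.00167%. The largest differences were 5 points higher and 4.55 points lower, each from 1 G read. At 0.0234% fewer than 1 position of 2612 would be counted, so the 0 sets no contrast with the background.

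4 covered positions had at least 3 G reads over both libraries, and 3 of them lie in HNRNPA2B1. The position with the most, chr7:26237251, had 5 of 95 reads (5.26%, 1.73 to 11.9) with ABA and 2 of 96 reads (2.08%) without ABA (exact p = 0.279, adjusted p = 1). At chr7:26232951 there were 3 of 60 reads (5%) with ABA and 1 of 63 (1.59%) without ABA. At chr7:26236198 the share was 1.11% with ABA, 1 of 90 reads, and 2.68% without ABA, 3 of 112 reads. In HNRNPU, chr1:245027083 had 3 of 60 reads (5%) with ABA and 1 of 50 (2%) without ABA. The base on the 3′ side was not A at any of the 4, and the share was higher with ABA at 3 of them.

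In the other genes no position had more than 2 G reads in all. HNRNPK and HNRNPC had 3 such positions each, and in HNRNPH1 no position had more than 1. In HNRNPA1 a single position had 2, chr12:54675581, with 2 of 8 reads (25%, 3.19 to 65.1) with ABA and 0 of 31 reads without ABA (exact p = 0.0378, not adjusted). It lay under the minimum of 20 reads with ABA, so it was not among the positions tested, and it is the first position of its block. Without it the ratio of HNRNPA1 was 0.786, so that the direction in this gene rested on 1 position.

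Reads were also pooled over blocks of neighbouring positions at most 100 nt apart, with at least 200 reads in each library, which stand in for exons here. The 6 genes had 66 such blocks, of 43870 in the nuclear transcripts. The A-to-G rate was higher with ABA in 31 of them, or 47.0%, against 26.9% of all blocks, lower in 22, or 33.3%, against 12.9%, and 13 had no G read, against 60.2%. With blocks of at least 1000 reads in each library, 52.1% of 48 hnRNP blocks were higher, 39.6% lower and 8.33% without a G read. Of 7514 other blocks 55.5% were higher, 24.8% lower and 19.7% without a G read. At an adjusted p under 0.05 none of the 66 differed, against 0.0137% of all blocks, and none had an unadjusted exact p under 0.05, against 0.545% of all blocks on the high side and 0.0228% on the low side.

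Against the ratio of 1.94 of all nuclear positions, 2 of the 66 blocks were lower at an unadjusted exact p under 0.05. Neither passed adjustment. This is a larger share than the 0.294% of all blocks, but the shares are not matched for depth. A block without a G read cannot pass, and 60.2% of all blocks had none, against 13 of the 66. None of the 66 was above that ratio, against 0.0365% of all blocks. 1 of the 2 lower blocks was chr7:26236025-26236275 in HNRNPA2B1, with 7 of 5054 reads (0.139%) with ABA and 11 of 4260 (0.258%) without ABA (exact p = 0.00817, adjusted p = 1). The other was chr1:245016735-245017804 in HNRNPU, with 2 of 7598 reads (0.0263%) with ABA and 6 of 7811 (0.0768%) without ABA (exact p = 0.0242, adjusted p = 1). Blocks of the same genes went the other way. In HNRNPA2B1 chr7:26237249-26237486 had 10 of 3054 reads (0.327%) with ABA and 5 of 2731 (0.183%) without ABA. In HNRNPU the block at the 5′ end, chr1:245026950-245027742, had 16 of 8070 reads (0.198%) with ABA and 8 of 6782 (0.118%) without ABA.

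Along the transcripts, from the 5′ to the 3′ end, the positions of each gene were divided into 3 parts of equal number. Pooled over the genes, the first had a rate of 0.118% with ABA and 0.0904% without ABA, a ratio of 1.30 (0.906 to 1.88). The second had 0.100% with ABA and 0.111% without ABA, a ratio of 0.905 (0.623 to 1.31). The third, at the 3′ end, had 0.0673% with ABA, 17 of 25273 reads, and 0.0310% without ABA, 9 of 29020 reads, a ratio of 2.17 (0.914 to 5.52). The intervals of the 3 ratios overlapped. The genes were split in the last part. HNRNPA2B1 had 6 G reads there with ABA and 1 without ABA, HNRNPU 4 and 1, and HNRNPA1 3 and 0. HNRNPK and HNRNPH1 went the other way, each with a ratio of 0.804, as did HNRNPC with 0 G reads with ABA and 1 without ABA. The last part was also the least covered, with 17.0 reads per position with ABA and 19.5 without ABA, against 43.4 with ABA and 40.1 without ABA in the first.

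Relative read depth differed between the libraries by gene. Scaled to 1000000 nuclear base reads over the shared positions, HNRNPA2B1 had 752 with ABA and 634 without ABA, a ratio of 1.19 (1.17 to 1.21). HNRNPA1 had 208 with ABA and 239.9 without ABA, a ratio of 0.869 (0.844 to 0.895). The 2 related genes thus lay on opposite sides of 1. HNRNPC had a ratio of 1.10 and HNRNPU of 1.05, while the interval of HNRNPK held 1 (0.999, 0.981 to 1.02) and HNRNPH1 had 480.2 with ABA and 478.5 without ABA. These values are shares of the reads of a library and not amounts per cell. In bulk RNA a change in some cells and a change in all cells cannot be told apart. With 1 library a condition such ratios have no replicate check. The spread over other nuclear blocks was wide, with a 5th percentile of 0.716 and a 95th of 1.38.

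The change in depth was not even along the genes. The block at the 3′ end was relatively shallower with ABA in 6 of 6 genes, with ratios of 0.724 in HNRNPA2B1, 0.891 in HNRNPA1, 0.906 in HNRNPC, 0.891 in HNRNPK, 0.762 in HNRNPH1 and 0.817 in HNRNPU. The value of HNRNPA2B1 rests on 248 A plus G reads with ABA and 352 without ABA. These are 7.29 and 10.4 reads per position, close to the lowest listed total of 6 reads. Pooled over the genes the end blocks had 0.849 (0.832 to 0.867), against 1.09 (1.08 to 1.10) for the 60 other blocks. In HNRNPA1 the end block was not lower than the rest, whose ratio was 0.857, while in the 5 other genes it was. Of the 60 other blocks, 42 were relatively deeper with ABA, and 7 of the 18 that were not lay in HNRNPA1. Of all other nuclear blocks 48.8% had a ratio under 1. Whether the 3′ end blocks of other genes did the same was not tested. Of the 66 blocks the relatively deepest was chr14:21681121-21681275 in HNRNPC, at 1.64, and the shallowest chr12:54678048-54678080 in HNRNPA1, at 0.472. The split by block was chosen after the values were seen.

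**Figure D5:**
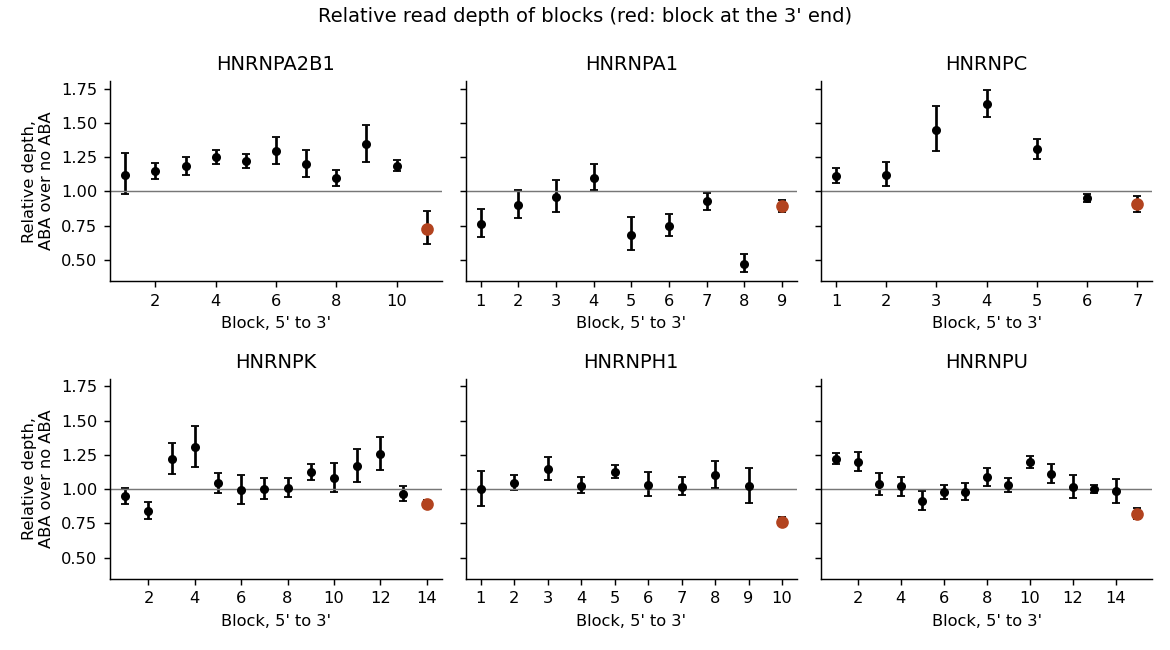
Relative read depth of each block, ABA over no ABA after division by the nuclear reads of each library, from the 5′ to the 3′ end of each gene, with exact 95% intervals of counting error. Red points mark the block at the 3′ end, which lies under 1 in all 6 genes, from 0.724 in HNRNPA2B1 to 0.906 in HNRNPC. That of HNRNPA2B1 has 7.29 reads per position with ABA and 10.4 without ABA.

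The opposite strand of the 6 intervals held few reads. It listed 63 positions with 479 base reads with ABA and 106 positions with 863 base reads without ABA, and none in HNRNPH1. There was 1 G read with ABA, in HNRNPU, and 0 without ABA, where a count of 0 allows 3 reads.

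The blocks outside the 6 genes whose pair of rates was nearest to the pooled hnRNP pair were sought among 485 blocks with at least 5000 reads in each library. The nearest, by the distance of their log2 rates, were chr11:10821638-10822382 on the minus strand (0.0986% with ABA and 0.0861% without ABA), chrX:135955428-135956609 on the minus strand (0.107% with ABA and 0.0857% without ABA) and chr17:45759770-45762313 on the plus strand (0.0969% with ABA and 0.0859% without ABA). They rest on 6 to 10 G reads a library, and their genes were not determined.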

How the data were processed

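The authors deposited raw base counts per listed position for the 2 libraries, with the strands in separate files. Per the submitters' processing notes, reads were handled with cutadapt and HISAT2 and the hg19 build. The sources used here do not name the base counter. Per the file headers the read cutoff for a base was 5, and the lowest listed total was 6 reads. The 4 base counts did not add up to the listed total at 0.043% of listed positions, so rates use the base counts. The libraries held 45243136 base reads with ABA and 51056022 without ABA. Positions of chromosome Y were not used.

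Counts of the minus strand were turned to the transcript strand. Rates use positions listed in both libraries, with variant-like positions left out. The gene intervals are those of the member rule. Tests are two-sided, with Benjamini-Hochberg adjustment over all features. 1 read covers several positions, and no molecular identifiers are named, so intervals are too narrow to that extent. On simulated data the site test recovered 1.5% of sites raised by 20 points and 88% of those raised by 60 points, with 0 false calls, and the block test 9% of blocks raised 20-fold and 87% of those raised 100-fold, with 0 false calls. The test against the ratio of the other positions was simulated at about the read number of the 6 genes pooled, and not at that of single genes. It passed an unadjusted p under 0.05 in 200 of 200 runs with a ratio of 1 where the others had 2. With no difference it passed falsely in 5 of 200 runs. The simulated reads were independent and drawn at 1 rate per condition, without the spread between transcripts in these data. On the data 6.12% of all 947 features passed on the low side and 2.01% on the high side. The runs thus give no error rate for this test on the data. Sites were named where they had the most G reads of a gene, or at least 3 G reads and 20 reads in both libraries. The members and lists were chosen with earlier results of these data known. The transcript-sized units, the depth of the end blocks and the split by neighbouring base and by part of the transcript were added after the data were seen. The software was scipy 1.17.1, numpy 2.4.6, matplotlib 3.10.9 and pandas 2.3.3 under Python 3.11.15.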

Additional observations from a re-analysis of the deposited data

How the results depend on the processing

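The pooled hnRNP ratio stayed above 1 and not past the threshold in all 13 alternatives, from 1.07 with at least 50 reads to 1.25 with every listed position, and from 1.16 to 1.20 without each gene in turn. Divided by the ratio of the other nuclear positions it was 0.610, and 0.568 (at least 50 reads) to 0.702 (variant-like positions kept) over 15 alternatives, 13 of them chosen after seeing the data. The direction of single genes was less firm. HNRNPA1 gave 0.786 with a variant-like limit of 20%, which removes the same position as leaving out that of most G reads, and 1 after thinning to the lower depth. In the other direction it gave 1.56 with every listed position and 1.54 with at least 20 reads. HNRNPK gave 0.916 with at least 20 reads and 0.722 with at least 50, but 1.45 after thinning. HNRNPU gave 0.921 with at least 50 reads. HNRNPH1 gave 1.02 without 1 of its 23 positions tied for most G reads, at 1 read each, and 0.583 with at least 50 reads. HNRNPA2B1 and HNRNPC kept their direction in 7 of 7 alternatives. A change of at least 5 points counted 3 hnRNP sites higher by size alone, or 0.115%, against 0.229% of all nuclear positions. The count was 0 at 10 points, and the other 2 coverage minimums also gave 0. The blocks gave no call in 3 of 3 alternatives. Relative depth taken over all listed positions was larger than over shared positions in 6 of 6 genes, and for HNRNPK it turned to 1.07. Each setting was scaled to the nuclear base reads of its own positions, so the scaling changed too. The library without ABA listed 4077350 positions in all and the ABA library 3516836. How much of the shift came from the scaling was not tested. No paired analysis was possible because each condition had 1 library. The comparisons with other hnRNP genes were not run, since an hg19 annotation was not used here. Depth limits the site test to large changes, and the 6 genes hold 8 to 52 G reads each in a library.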
